A study of Mus musculus with 8 samples.

Results

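The expression of 34 genes of peroxisome biogenesis and peroxisomal lipid metabolism was examined in brown fat of Prdm16 knockout mice and of wild-type mice, Prdm16 being a zinc-finger regulator of brown fat identity. The genes comprised 12 peroxins, 10 enzymes and carriers of beta-oxidation, 2 enzymes of alpha-oxidation, 3 of ether lipid synthesis, 4 transporters and membrane proteins, and 3 genes of acyl export, acyl reduction and peroxide breakdown. They were chosen by the gene name that the array design gives each probe, from a list set by pathway. Earlier results of these data were known when the list was chosen. All 34 were among the 21742 genes tested, 33 under their present symbol and Pex2 under its older name, Pxmp3, through its RefSeq accession. The probe that stood for each gene lay well above background in all 16 channel measurements.

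Expression was measured on 8 Agilent arrays that read 2 dyes, 4 for mice of 6 weeks and 4 for mice of 11 months, each array setting Prdm16 KO brown adipose tissue against WT brown adipose tissue of the same age. The design text counts 4 biological replicates per condition. The labels give neither the strain nor the knockout allele, nor any Cre driver, so whether the loss of Prdm16 was limited to fat cells is not known here. At 6 weeks the knockout RNA carried Cy3 on arrays 1 and 2 and Cy5 on arrays 3 and 4, and at 11 months it carried Cy5 on arrays 1 and 2 and Cy3 on arrays 3 and 4. The ages were run as separate batches on separate slides, so that age and batch cannot be told apart in any difference between ages, while knockout and wild type were compared within each array. In whole tissue, fewer cells of a type and less RNA per cell cannot be told apart.

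Peroxisomes are single-membrane organelles whose matrix enzymes are imported folded, by peroxins, and which shorten very long-chain, branched and dicarboxylic fatty acids that mitochondria handle poorly. They also carry out the first steps of ether lipid (plasmalogen) synthesis. Brown fat is rich in peroxisomes, and several of their enzymes are targets of the nuclear receptor PPAR-alpha and its coactivator PGC-1alpha, encoded by Ppara and Ppargc1a.

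Values are given as the log2 ratio, knockout over wild type, per array in the order of arrays 1 to 4, or as the value fitted over the 4 arrays of an age with its standard error (SE) in a limma model (n = 4 arrays per age). A gene was called where its p-value, after Benjamini-Hochberg adjustment across the 21742 genes, was below 0.05. Across the series, between 61.2% and 68.2% of a channel's spots stood well above background, and Ucp1, the heat-producing uncoupling protein of brown fat, was well above background in every channel. The target itself, Prdm16, had log2 ratios of -0.39, 0.063, -1.09 and -0.88 at 6 weeks (fitted -0.58 ± 0.15 SE, adjusted p = 0.042) and of -0.96, -0.18, -0.44 and -0.42 at 11 months (fitted -0.50 ± 0.15, adjusted p = 0.0372). It was thus lower in 7 of 8 arrays, and array 2 at 6 weeks showed no decrease. The sources used here do not say whether its probe lies in the deleted part. Skeletal muscle genes varied widely between arrays, with list medians over 18 genes of 0.050, -2.70, 2.48 and -3.24 at 6 weeks and of -0.48, -1.16, -0.28 and 1.61 at 11 months, and 0 of the 18 were called by limma at either age (1 at 6 weeks and 0 at 11 months at an unadjusted p below 0.05). General adipocyte genes were called higher in 5 of 10 at 6 weeks and 8 of 10 at 11 months, macrophage genes in 1 of 11 (with 1 lower) and 7 of 11. Of 10 endothelial genes, 3 were lower at 6 weeks and 0 were called at 11 months (1 higher and 1 lower at an unadjusted p below 0.05). Among all genes, 9.18% were called higher and 7.01% lower at 6 weeks, and 17.9% and 16.8% at 11 months. These shares are for the adjusted p, and the share of all genes at an unadjusted p below 0.05 was not counted. The part of these cell-type lists in the results was not tested. Counts without the extreme muscle arrays, given below, also rest on fewer arrays.

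At 6 weeks 15 of the 34 genes were called, 9 higher and 6 lower in the knockout, against 16.2% of all genes tested (9.18% higher and 7.01% lower). At 11 months 22 were called, 8 higher and 14 lower, against 34.7% of all genes (17.9% higher and 16.8% lower). The log2 ratio had 1 sign in all 4 arrays of an age in 22 of the 34 genes at 6 weeks, against 34.5% of all genes, and in 24 at 11 months, against 50.3%. The 6-week-old knockout thus showed a mixed pattern, with several oxidation enzymes higher, and the 11-month-old knockout showed more genes lower than higher. The median over the 34 genes was -0.028 at 6 weeks and -0.22 at 11 months, where the medians of all genes were -0.0011 and 0.0082. With median centring in place of loess, the genes called split into 4 higher and 1 lower at 6 weeks and 6 higher and 4 lower at 11 months, and the member medians were 0.18 and -0.0097. Without the 2 arrays lowest in skeletal muscle genes (arrays 2 and 4 at 6 weeks), 1 gene (Pxmp2) was called at 6 weeks and 21 genes at 11 months, and among all genes the calls at 6 weeks fell from 3520 to 336. This fit kept only arrays 1 and 3 of 6 weeks and all 4 arrays of 11 months. Muscle content and the smaller number of arrays cannot be told apart in the 6-week counts. Without the 2 arrays highest in them (array 3 at 6 weeks and array 4 at 11 months), 8 and 16 genes were called. Leaving out array 2 or array 3 at 6 weeks left 8 calls at 6 weeks, and leaving out array 1 or array 2 at 11 months left 12 or 13 calls at 11 months.

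Which genes lost their call depended on the setting. Median centring ended 11 calls at 6 weeks (Pex6, Pex13, Pex14, Pex16, Pex19, Ehhadh, Scp2, Ech1, Phyh, Pxmp2 and Crot, adjusted p 0.0524 to 0.277) and brought in Amacr (0.64, adjusted p = 0.0496). At 11 months it ended 12 (Pex2, Pex3, Pex6, Pex10, Pex14, Pex16, Pex26, Acox3, Decr2, Abcd3, Crot and Pecr, adjusted p 0.0504 to 0.959). Of the called differences between ages it ended 7 (Pex3, Pex7, Pex19, Ehhadh, Scp2, Abcd3 and Pxmp4, adjusted p 0.0817 to 0.379). The scanner software's own log ratio ended the 6-week calls of Pex13, Pex14, Pex19, Ehhadh and Ech1 and the differences of Pex3 and Pxmp4 (adjusted p 0.051 to 0.0854). With no dye coefficient the 6-week calls of Pex19 and Ech1, the 11-month call of Pex14 and the differences of Pex19, Scp2 and Pxmp4 ended (adjusted p 0.0541 to 0.0958). A normexp offset of 0 ended the differences of Pex3, Pex19 and Scp2 (adjusted p 0.0544 to 0.0586). With no filter on dim probes the 6-week call of Ech1, the 11-month call of Pex14 and the differences of Pex19 and Pxmp4 ended (adjusted p 0.0527 to 0.058). Ech1 at 6 weeks was also not called without background correction (adjusted p = 0.0598) or with the deposited values (0.0592), nor Pex6 at 6 weeks with each age modelled alone (0.0579).

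**Figure D1:**
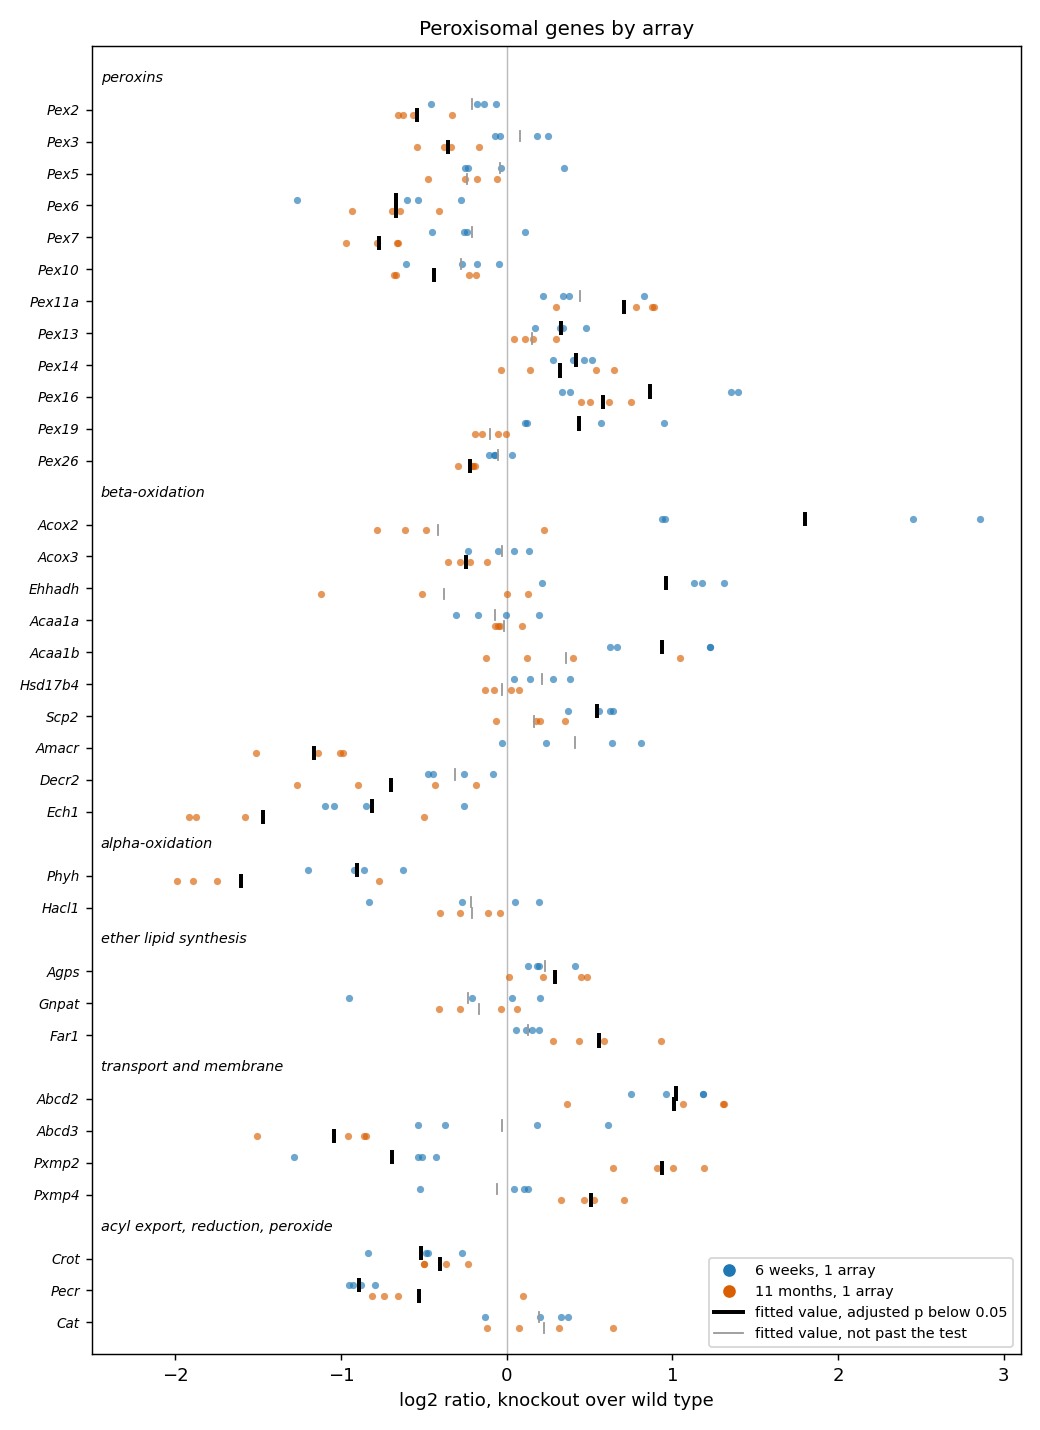
Log2 ratio of knockout over wild type (horizontal axis) of the 34 peroxisomal genes, grouped by role. Each point is 1 array (blue, 6 weeks; orange, 11 months), and vertical marks are fitted values, thick and black where the adjusted p was below 0.05. Acox2 reached 2.86 at 6 weeks, Phyh reached -1.99 at 11 months, and Pxmp2 lay below 0 in the 4 arrays of 6 weeks and above 0 in the 4 of 11 months.

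Peroxins build the organelle. PEX3, PEX16 and PEX19 insert its membrane proteins. PEX5 and PEX7 carry matrix enzymes from the cytosol, PEX13 and PEX14 form the docking site, and PEX2 and PEX10 belong to the ubiquitin ligase that, with the ATPase PEX6 and its membrane anchor PEX26, returns PEX5 to the cytosol. PEX11-alpha takes part in elongation and division of the organelle. Of the 12 peroxins measured, 4 were higher and 1 lower at 6 weeks (median 0.018), and 3 were higher and 6 lower at 11 months (median -0.23). The group therefore did not move as one at either age. The shares of all genes called were 9.18% higher and 7.01% lower at 6 weeks, and 17.9% higher and 16.8% lower at 11 months.

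Among the membrane assembly factors, Pex16 had log2 ratios of 1.39, 1.36, 0.38 and 0.33 at 6 weeks and of 0.62, 0.45, 0.75 and 0.50 at 11 months. It was higher in the knockout in all 8 arrays, 1.82-fold at 6 weeks (fitted 0.87 ± 0.13, adjusted p = 0.00692) and 1.5-fold at 11 months (0.58 ± 0.13, adjusted p = 0.0116). The 2 high arrays at 6 weeks were those with the knockout in Cy3. Each age had the knockout in each dye on 2 arrays, so a dye term cannot move the fitted values and only alters the adjusted p. At 6 weeks it was 0.000734 with a dye coefficient per age and 0.0221 with no dye coefficient. With no dye coefficient it was 0.0452 at 11 months. The call at 11 months ended without array 1 (adjusted p = 0.0595) or array 2 (0.0628) of that age. Pex19, the cytosolic chaperone of peroxisomal membrane proteins, had ratios of 0.57, 0.95, 0.11 and 0.12 at 6 weeks and of -0.051, -0.15, -0.19 and -0.0048 at 11 months. The ages did not overlap: Pex19 was above 0 in each young array and below 0 in each old one, with its larger 6-week values again on the 2 arrays with the knockout in Cy3. It was called at 6 weeks (0.44 ± 0.11, adjusted p = 0.0325) and not at 11 months (-0.099 ± 0.11, adjusted p = 0.515), with an age difference of -0.54 ± 0.15 (adjusted p = 0.0468). That difference missed the threshold without any 1 of the 8 arrays (adjusted p 0.0524 to 0.101), and the 6-week call without any 1 array of that age or array 2 of 11 months (0.0546 to 0.11). With median centring the 6-week value was 0.66 (adjusted p = 0.13). Pex3, the membrane receptor for PEX19, had ratios of -0.039, 0.25, 0.18 and -0.074 at 6 weeks and of -0.17, -0.38, -0.54 and -0.34 at 11 months. Every old array lay below every young one. Its fitted value was 0.079 ± 0.081 at 6 weeks (adjusted p = 0.543) and -0.36 ± 0.081 at 11 months (adjusted p = 0.0117), a difference of -0.44 ± 0.11 (adjusted p = 0.0375). The 11-month call ended without array 2 or 3 of that age (adjusted p 0.0518 to 0.0591), and the difference without array 1, 2 or 3 of 6 weeks or array 2, 3 or 4 of 11 months (0.0572 to 0.101). Median centring took the 11-month value to -0.16 (adjusted p = 0.548).

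The import receptors differed in what was called. Pex7, which imports enzymes with the N-terminal targeting signal, among them phytanoyl-CoA hydroxylase, had log2 ratios of -0.24, 0.11, -0.45 and -0.26 at 6 weeks and of -0.66, -0.97, -0.66 and -0.78 at 11 months. The old arrays all lay below the young ones. Its fitted value was -0.77 ± 0.084 at 11 months, 1.70-fold lower (adjusted p = 0.000412), against -0.21 ± 0.084 at 6 weeks (adjusted p = 0.126). The difference of -0.56 ± 0.12 had an adjusted p of 0.018, and lost the threshold without array 4 of 6 weeks (0.0534) or array 2 of 11 months (0.0605). Pex5, the receptor for most matrix enzymes, was called at neither age (-0.043 ± 0.10, adjusted p = 0.81, and -0.24 ± 0.10, adjusted p = 0.109), with ratios between -0.48 and 0.35 over the 8 arrays.

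The docking genes had positive fitted values. Pex14 had log2 ratios of 0.47, 0.51, 0.28 and 0.40 at 6 weeks and of 0.65, 0.54, 0.14 and -0.034 at 11 months. It was higher in 7 of 8 arrays and called at both ages (0.42 ± 0.10, adjusted p = 0.0334, and 0.32 ± 0.10, adjusted p = 0.0435). The Pex14 calls ended without any of arrays 1, 2 and 4 of 6 weeks or array 2 of 11 months for 6 weeks (adjusted p 0.0549 to 0.149), and without array 1 or 4 of 6 weeks or array 1, 2 or 3 of 11 months for 11 months (0.0502 to 0.189), and with median centring the values were 0.63 (adjusted p = 0.114) and 0.54 (0.0864). Pex13 had ratios of 0.32, 0.48, 0.34 and 0.17 at 6 weeks and of 0.042, 0.16, 0.11 and 0.29 at 11 months. All 8 were above 0, and the gene was called at 6 weeks (0.33 ± 0.060, adjusted p = 0.0132) and not at 11 months (0.15 ± 0.060, adjusted p = 0.0907), with no call for the age difference (-0.18 ± 0.085, adjusted p = 0.19). A second Pex13 probe, with p adjusted over all probes kept, read 0.84 ± 0.14 at 6 weeks (adjusted p = 0.00973). The Pex13 call ended without array 2 or 3 of 6 weeks (adjusted p 0.0599 to 0.0623). The 6-week value was 0.57 with median centring (adjusted p = 0.119) and 0.59 as the mean of its probes (adjusted p = 0.00635).

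In the export machinery the called values were negative. Pex6 had log2 ratios of -1.27, -0.28, -0.60 and -0.54 at 6 weeks and of -0.94, -0.69, -0.64 and -0.41 at 11 months. It was lower in all 8 arrays, with a fitted value of -0.67 ± 0.15 at each age, 1.59-fold lower (adjusted p = 0.0261 and 0.0123), and a difference of 0.0019 (95% interval -0.50 to 0.51). The Pex6 calls ended without array 3 or 4 of 6 weeks at 6 weeks (adjusted p 0.0587 to 0.0745) and without array 1 or 2 of 11 months at 11 months (0.0526 to 0.0657). The 6-week value was -0.44 with median centring (adjusted p = 0.152) and -0.42 without array 1 of that age (adjusted p = 0.032). A second probe for Pex6 was also called lower at both ages (-0.34 ± 0.094 and -0.56 ± 0.094, adjusted p = 0.0478 and 0.00322). Pex2 had ratios of -0.46, -0.18, -0.064 and -0.14 at 6 weeks and of -0.33, -0.63, -0.56 and -0.66 at 11 months. Also below 0 throughout, it was called at 11 months (-0.54 ± 0.071, adjusted p = 0.000934) and not at 6 weeks (-0.21 ± 0.071, adjusted p = 0.0813), and the difference was not called (adjusted p = 0.057). With median centring the 11-month value of Pex2 was -0.32 (adjusted p = 0.1). Its ligase partner Pex10 had ratios of -0.61, -0.046, -0.18 and -0.27 at 6 weeks and of -0.68, -0.67, -0.18 and -0.23 at 11 months. Pex10 too was below 0 in every array. It was not called at 6 weeks (-0.28 ± 0.11, adjusted p = 0.13) and was called at 11 months (-0.44 ± 0.11, adjusted p = 0.0186) but not without array 1 or 2 of that age (0.0898 to 0.0912). That value was -0.24 with median centring (adjusted p = 0.122) and -0.68 with the scanner software's log ratio (adjusted p = 0.00517). Pex26 had small ratios, from -0.11 to 0.034 at 6 weeks and of -0.29, -0.21, -0.20 and -0.19 at 11 months (fitted -0.22 ± 0.051, adjusted p = 0.0114). With median centring the 11-month value of Pex26 was 0.0099 (adjusted p = 0.959), and the call ended without array 1 of 11 months (adjusted p = 0.0588). A second Pex26 probe, well above background in 9 of 16 channel measurements, read 0.0013 at 11 months, and the mean of the Pex26 probes was -0.11 (adjusted p = 0.107).

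Pex11a had log2 ratios of 0.83, 0.22, 0.38 and 0.34 at 6 weeks and of 0.78, 0.88, 0.89 and 0.29 at 11 months. It was higher in all 8 arrays and called at 11 months, 1.64-fold (0.71 ± 0.13, adjusted p = 0.00428), a call kept under every alternative run. At 6 weeks its fitted value of 0.44 ± 0.13 had an adjusted p of 0.0547, and the difference between ages of 0.27 (95% interval -0.15 to 0.69) was not called.

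Beta-oxidation in peroxisomes starts with an acyl-CoA oxidase, goes on with a bifunctional enzyme and ends with a thiolase. Of the 10 genes measured, 4 were higher (Acox2, Ehhadh, Acaa1b and Scp2) and 1 lower (Ech1) at 6 weeks, with a median of 0.31, and 0 were higher and 4 lower at 11 months (Acox3, Amacr, Decr2 and Ech1), with a median of -0.31. At an unadjusted p below 0.05 in limma, 1 was higher and 4 were lower at 11 months, a level at which all genes were not counted. Calls over all genes made up 9.18% higher and 7.01% lower at 6 weeks, and 17.9% and 16.8% at 11 months. By the brightest probe, none of the 4 genes raised at 6 weeks was called at 11 months, and the age difference was called in 3 of them. These 4 were picked by their 6-week values, which also enter the difference, so the selection itself favours a lower value at 11 months. With the mean of its probes, Scp2 was called higher at 11 months (0.33, adjusted p = 0.00352). Upstream sequences are shown for Acox2, Ehhadh and Acaa1b, the 3 of these 10 genes raised most at 6 weeks, and for Acaa1a, the thiolase paralog that was not called. Each is the 250 bases before the start of the RefSeq transcript (GRCm38.p6), 5′ to 3′ on the gene's strand, with GGGCGG (the core of the Sp1 site) and CCAAT, on either strand, in capitals.

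Acox2, chr14:8259020-8259269, minus strand: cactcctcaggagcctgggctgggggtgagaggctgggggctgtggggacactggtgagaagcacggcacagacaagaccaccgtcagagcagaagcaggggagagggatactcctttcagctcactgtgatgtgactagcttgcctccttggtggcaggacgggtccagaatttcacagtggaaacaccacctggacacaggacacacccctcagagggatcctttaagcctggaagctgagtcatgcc

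Ehhadh, chr16:21787835-21788084, minus strand: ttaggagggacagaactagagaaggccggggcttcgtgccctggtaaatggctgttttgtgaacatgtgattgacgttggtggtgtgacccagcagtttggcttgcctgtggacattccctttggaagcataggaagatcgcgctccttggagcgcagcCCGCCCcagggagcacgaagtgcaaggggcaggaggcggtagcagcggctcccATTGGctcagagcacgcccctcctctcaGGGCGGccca

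Acaa1a, chr9:119341044-119341293, plus strand: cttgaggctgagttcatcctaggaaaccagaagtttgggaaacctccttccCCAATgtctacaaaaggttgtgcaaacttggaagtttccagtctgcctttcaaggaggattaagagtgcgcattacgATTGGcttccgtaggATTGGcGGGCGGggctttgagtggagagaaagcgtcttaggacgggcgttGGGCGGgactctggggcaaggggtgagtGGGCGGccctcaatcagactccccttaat

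Acaa1b, chr9:119157094-119157343, minus strand: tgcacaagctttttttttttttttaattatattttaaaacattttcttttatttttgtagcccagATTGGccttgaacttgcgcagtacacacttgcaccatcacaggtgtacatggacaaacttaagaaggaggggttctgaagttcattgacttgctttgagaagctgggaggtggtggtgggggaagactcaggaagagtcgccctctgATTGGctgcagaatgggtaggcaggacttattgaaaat

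The Acaa1 paralogs differed in these letters, with 3 GGGCGG and 3 CCAAT matches upstream of Acaa1a (53.6% G and C) and 0 and 2 upstream of Acaa1b (41.6%). Ehhadh had 2 GGGCGG and 1 CCAAT, and the Acox2 stretch, the first of 2 listed starts, had 0 of either. A window of 300 bases, 250 before and 50 after the start, was listed for 28 of the 34 genes (33 windows). The direct repeat of the peroxisome proliferator element (AGGTCA, any 1 base, AGGTCA), searched in exact letters on both strands, was in 0 of the 33 windows and in 0.0396% of all 32851 windows. A single AGGTCA, which is also part of the repeat, was in 3 (Cat, Phyh and Scp2), against 16.3% of all windows, GGGCGG in 23 against 35.7%, and CCAAT in 15 against 37.4%. These are matches of letters and not measured sites.

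Acox2 encodes an acyl-CoA oxidase for bile acid intermediates. Its probe (mm9 chr14:9058141-9058200) gave log2 ratios of 2.86, 2.45, 0.94 and 0.95 at 6 weeks and of -0.61, -0.49, 0.22 and -0.78 at 11 months. The young arrays all lay above the old ones, and the 2 arrays with the knockout in Cy3 stood above the 2 with it in Cy5 at 6 weeks. Acox2 was 3.48-fold higher in the knockout at 6 weeks (1.80 ± 0.23, adjusted p = 0.00397) and not called at 11 months (-0.41 ± 0.23, adjusted p = 0.211), a difference of -2.22 ± 0.33 (adjusted p = 0.00544). With a dye coefficient per age the adjusted p was 0.00114 at 6 weeks and 0.00186 for the difference. With no dye coefficient it was 0.0126 at 6 weeks. Without the 2 arrays lowest in skeletal muscle genes the fitted 6-week value was 1.90 (adjusted p = 0.0658). Acox3, a branched-chain acyl-CoA oxidase, had ratios from -0.23 to 0.13 at 6 weeks and from -0.35 to -0.12 at 11 months, where it was called (-0.24 ± 0.073, adjusted p = 0.0355). The Acox3 call ended without array 3 or 4 of 6 weeks or array 1, 2 or 3 of 11 months (adjusted p 0.0537 to 0.129). With median centring its value was -0.019 (adjusted p = 0.935), and the call also ended with the mean of its probes (0.0532) and with each age modelled alone (0.0505).

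Ehhadh, the bifunctional enzyme of straight-chain and dicarboxylic acyl-CoAs, had log2 ratios of 1.31, 1.13, 1.18 and 0.21 at 6 weeks and of -0.51, 0.13, -1.12 and 0.0025 at 11 months. Array 4 stood apart from the other young arrays, and the young values still lay above all old ones. The gene was 1.94-fold higher at 6 weeks (0.96 ± 0.24, adjusted p = 0.0344) and not called at 11 months (-0.38 ± 0.24, adjusted p = 0.266), with a difference of -1.33 ± 0.34 (adjusted p = 0.0335). Without array 1, 2 or 3 of 6 weeks or array 1 of 11 months, neither the 6-week value (adjusted p 0.0557 to 0.152) nor the difference (0.0804 to 0.0912) passed. Hsd17b4, the bifunctional enzyme of branched-chain substrates, was called at neither age (0.21 ± 0.070, adjusted p = 0.0802, and -0.027 ± 0.070, adjusted p = 0.797).

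The thiolases Acaa1a and Acaa1b are near-identical paralogs on chromosome 9, each with a probe of its own (mm9 chr9:119259353-119259412 and chr9:119057326-119057385), and how far each probe reads the other transcript was not tested. Acaa1b had log2 ratios of 0.62, 1.23, 0.67 and 1.22 at 6 weeks and of 0.12, 0.40, -0.13 and 1.04 at 11 months. It was above 0 in 7 of 8 arrays, 1.91-fold higher at 6 weeks (0.94 ± 0.19, adjusted p = 0.0192), and not called at 11 months (0.36 ± 0.19, adjusted p = 0.191), while the ages overlapped and the difference was not called (-0.58 ± 0.27, adjusted p = 0.181). The larger young values were those of arrays 2 and 4, the arrays lowest in skeletal muscle genes, and without both the 6-week value was 0.64 (adjusted p = 0.226). Leaving out array 2, 3 or 4 of 6 weeks also ended the call (0.05 to 0.08). Acaa1a had ratios of -0.31, -0.0031, -0.18 and 0.19 at 6 weeks and of -0.053, 0.095, -0.070 and -0.040 at 11 months. These lay on both sides of 0 at both ages, with fitted values of -0.073 (95% interval -0.26 to 0.11) and -0.017 (-0.20 to 0.17). Scp2, which encodes the branched-chain thiolase SCPx and a lipid carrier from one gene, had ratios between 0.37 and 0.64 at 6 weeks and between -0.062 and 0.35 at 11 months. It was called at 6 weeks (0.55 ± 0.062, adjusted p = 0.0027), and the difference between ages was -0.38 ± 0.088 (adjusted p = 0.0246). A second Scp2 probe was called higher at both ages (0.87 ± 0.063, adjusted p = 0.000709, and 0.49 ± 0.063, adjusted p = 0.000846), unlike the brighter probe at 11 months (0.17, adjusted p = 0.076). The Scp2 difference missed the threshold without array 2, 3 or 4 of 6 weeks or array 2 of 11 months (adjusted p 0.0579 to 0.0762), with no dye coefficient (0.0601) and with a normexp offset of 0 (0.0544).

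Amacr, Ech1 and Decr2, the other beta-oxidation genes called lower at 11 months, act beside the oxidase, bifunctional enzyme and thiolase. Amacr, the racemase that turns branched acyl-CoAs into the form the oxidases accept, had log2 ratios of -0.032, 0.64, 0.24 and 0.81 at 6 weeks and of -1.14, -1.51, -0.99 and -1.01 at 11 months. The old arrays lay well below the young ones. Amacr was 2.24-fold lower at 11 months (-1.16 ± 0.15, adjusted p = 0.000825), against 0.41 ± 0.15 at 6 weeks (adjusted p = 0.0953), and its difference of -1.58 ± 0.21 (adjusted p = 0.00369) was kept under every alternative run. Ech1, a dienoyl-CoA isomerase found in peroxisomes and mitochondria, had ratios of -1.09, -0.26, -1.04 and -0.85 at 6 weeks and of -1.58, -1.92, -1.88 and -0.50 at 11 months. It was lower in all 8 arrays, least in array 2 of 6 weeks and array 4 of 11 months. Ech1 was 2.77-fold lower at 11 months (-1.47 ± 0.22, adjusted p = 0.00175), a call kept throughout, and 1.75-fold lower at 6 weeks (-0.81 ± 0.22, adjusted p = 0.0435). The 6-week call of Ech1 ended without any 1 array of that age or array 1 or 2 of 11 months (adjusted p 0.0666 to 0.192). Decr2, the peroxisomal dienoyl-CoA reductase, had ratios of -0.44, -0.26, -0.082 and -0.47 at 6 weeks and of -0.90, -0.19, -1.27 and -0.43 at 11 months. It too was below 0 in all 8 arrays, and was called at 11 months (-0.70 ± 0.16, adjusted p = 0.0121) but not without array 1 of that age (0.0649).

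In alpha-oxidation, which removes 1 carbon from phytanic acid, Phyh encodes the hydroxylase of the first step. It had log2 ratios of -1.20, -0.62, -0.92 and -0.86 at 6 weeks and of -1.75, -1.99, -1.89 and -0.77 at 11 months. All 8 arrays were below 0, with array 4 apart from the others at 11 months and inside the 6-week range. Phyh was 1.87-fold lower at 6 weeks (-0.90 ± 0.18, adjusted p = 0.0185) and 3.03-fold lower at 11 months (-1.60 ± 0.18, adjusted p = 0.00052). The difference of -0.70 ± 0.26 was not called (adjusted p = 0.103), but without array 4 of 11 months, the array highest in skeletal muscle genes at that age, it was -0.98 (adjusted p = 0.00849). The 6-week call ended without array 1, 2 or 3 of that age (0.0558 to 0.0864). Hacl1, the lyase that cleaves the hydroxylated product, was called at neither age (-0.21 ± 0.14 at each, adjusted p = 0.322 and 0.28).

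Ether lipid synthesis begins in the peroxisome with GNPAT and AGPS, using fatty alcohols made by FAR1. Of the 3 genes 0 were called by limma at 6 weeks (1 at an unadjusted p below 0.05) and 2 were higher at 11 months. Far1 had log2 ratios from 0.055 to 0.20 at 6 weeks (fitted 0.13 ± 0.094, adjusted p = 0.387) and from 0.28 to 0.93 at 11 months, where it was 1.47-fold higher (0.56 ± 0.094, adjusted p = 0.00307). A second Far1 probe, well above background in 14 of 16 channel measurements, was not called at 11 months (0.13 ± 0.054, adjusted p = 0.109). For the brighter probe the ages did not overlap, while the difference of 0.43 ± 0.13 missed the threshold (adjusted p = 0.0623). That difference was called with the scanner software's log ratio (1.02, adjusted p = 0.0193), the deposited values (0.69, 0.0236), no background correction (0.67, 0.0241) and without array 3 of 11 months (0.52, 0.0449). The 11-month value of Far1 was 1.21 with the scanner ratio, 0.85 with the deposited values and 0.34 as the mean of its probes, called in each. Agps had ratios from 0.13 to 0.41 at 6 weeks and from 0.013 to 0.49 at 11 months, above 0 in all 8 arrays, and was called at 11 months (0.29 ± 0.066, adjusted p = 0.0116), though not without array 1 or 2 of that age (0.0581 to 0.0594), and was 0.52 with median centring (adjusted p = 0.0429). Gnpat was called at neither age (-0.23 ± 0.17, adjusted p = 0.399, and -0.17 ± 0.17, adjusted p = 0.501) and ranged from -0.95 to 0.20 over the 8 arrays. Among 8 measured genes of the later, mostly endoplasmic steps and of plasmalogen turnover, 3 were higher at 6 weeks, and 5 were higher and 1 lower at 11 months. Called higher among all genes were 9.18% at 6 weeks and 17.9% at 11 months, and called lower 7.01% and 16.8%. Pla2g6, a phospholipase, was higher at both ages (0.81 ± 0.12, adjusted p = 0.00604, and 0.98 ± 0.12, adjusted p = 0.000634). Cept1, which attaches the choline or ethanolamine head group, was higher at 11 months (1.25 ± 0.14, adjusted p = 0.000496), and so was Tmem86a (1.0 ± 0.18, adjusted p = 0.00449). Chpt1, the choline phosphotransferase, was higher at 6 weeks (0.53 ± 0.057, adjusted p = 0.00229), and Selenoi, the ethanolamine phosphotransferase, was higher at both ages (0.22 ± 0.054, adjusted p = 0.0345, and 0.36 ± 0.054, adjusted p = 0.00191).

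The membrane transporters went different ways. Abcd2, a transporter subunit for very long-chain and polyunsaturated acyl-CoAs, had log2 ratios of 1.18, 0.96, 0.75 and 1.19 at 6 weeks and of 1.31, 1.31, 0.36 and 1.06 at 11 months. It was higher in all 8 arrays by about the same amount at both ages, 2.03-fold (1.02 ± 0.15, adjusted p = 0.00589) and 2.02-fold (1.01 ± 0.15, adjusted p = 0.00159), and the difference of -0.010 had a 95% interval from -0.49 to 0.47. Without the 2 arrays lowest in skeletal muscle genes the 6-week value was 0.97 (adjusted p = 0.103). Abcd3, the abundant transporter subunit also known as PMP70, had ratios of 0.18, 0.61, -0.53 and -0.37 at 6 weeks and of -0.86, -0.85, -1.51 and -0.96 at 11 months. The young arrays fell on both sides of 0, higher on the 2 with the knockout in Cy3, and every old array lay below them. Abcd3 was 2.06-fold lower at 11 months (-1.04 ± 0.19, adjusted p = 0.00401) and not called at 6 weeks (-0.028 ± 0.19, adjusted p = 0.935), with a difference of -1.01 ± 0.26 (adjusted p = 0.0358). That difference missed the threshold without any 1 of 7 arrays, array 3 of 6 weeks being the exception (adjusted p 0.0502 to 0.082).

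Pxmp2, a channel-forming membrane protein that lets small metabolites pass, had log2 ratios of -1.28, -0.51, -0.54 and -0.43 at 6 weeks and of 1.0, 1.19, 0.91 and 0.64 at 11 months. Every young array was below 0 and every old array above it. Pxmp2 was 1.61-fold lower at 6 weeks (-0.69 ± 0.12, adjusted p = 0.0102) and 1.91-fold higher at 11 months (0.94 ± 0.12, adjusted p = 0.000788), a difference of 1.63 ± 0.17 (adjusted p = 0.00196). It was the 1 gene of the 34 called at both ages in opposite directions, as were 1.09% of all genes. The difference and the 11-month call were kept under every alternative run, and the 6-week call under all but median centring (-0.49, adjusted p = 0.0857) and without the 2 arrays highest in skeletal muscle genes (-0.69, adjusted p = 0.0535). Its probe spans chr5:110703618-110706703 in mm9, on the minus strand. Pxmp4, another integral membrane protein, had ratios from -0.52 to 0.13 at 6 weeks (fitted -0.061 ± 0.11, adjusted p = 0.753) and from 0.33 to 0.71 at 11 months, where it was higher (0.51 ± 0.11, adjusted p = 0.0114). Its ages did not overlap either, but the difference of 0.57 ± 0.16 (adjusted p = 0.0478) missed the threshold without any 1 of the 8 arrays (0.0516 to 0.106).

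Of the genes of export, reduction and peroxide breakdown, 2 of 3 were lower at both ages. Calls at both ages in one direction made up 7.79% of all genes. Pecr, the trans-enoyl-CoA reductase, had log2 ratios of -0.95, -0.80, -0.93 and -0.88 at 6 weeks and of -0.82, -0.66, 0.097 and -0.74 at 11 months. The 4 young arrays lay close together, and array 3 was the one old array without a decrease. Pecr was 1.85-fold lower at 6 weeks (-0.89 ± 0.13, adjusted p = 0.00589) and 1.44-fold lower at 11 months (-0.53 ± 0.13, adjusted p = 0.0153), the later call ending without array 1, 2 or 4 of that age (0.0637 to 0.0775) and with median centring (-0.33, 0.0504). Crot, which makes octanoylcarnitine so that shortened chains can leave for mitochondria, had ratios from -0.84 to -0.27 at 6 weeks and from -0.50 to -0.23 at 11 months. It was lower in all 8 arrays (-0.52 ± 0.093, adjusted p = 0.0125, and -0.40 ± 0.093, adjusted p = 0.0129), and at 11 months not called without array 1 or 2 of that age (0.0619 to 0.0645). With median centring the values of Crot were -0.30 (adjusted p = 0.143) and -0.17 (adjusted p = 0.278). Cat, the peroxide-degrading catalase, was called at neither age (0.19 ± 0.10, adjusted p = 0.24, and 0.23 ± 0.10, adjusted p = 0.127), with 95% intervals from -0.047 to 0.43 and from -0.012 to 0.47.

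The difference between the ages, taken as 11 months minus 6 weeks, was called in 10 of the 34 genes, 2 higher and 8 lower, against 18.2% of all genes tested (8.46% higher and 9.71% lower). The 8 lower were Pex3, Pex7, Pex19, Acox2, Ehhadh, Scp2, Amacr and Abcd3, and the 2 higher were Pxmp2 and Pxmp4. Arrays of the ages did not overlap in 12 genes, these 10 with Pex26 and Far1, against 19.5% of all genes. A total of 8 genes were called at both ages in one direction, against 7.79% of all genes: Pex14, Pex16 and Abcd2 higher, and Pex6, Ech1, Phyh, Crot and Pecr lower. Another 13 were called at 11 months and not at 6 weeks, 6 at 6 weeks and not at 11 months, and 6 (Pex5, Acaa1a, Hsd17b4, Hacl1, Gnpat and Cat) at neither. Among all genes too, more were called at 11 months (34.7%) than at 6 weeks (16.2%). Of the 21742 genes, 7544 were called at 11 months and 3520 at 6 weeks. Called at both ages were 1693 in one direction and 238 in opposite directions, and the rest of those calls were at 1 age only. Without any 1 array the number of called differences was between 4 and 9, and it was 2 and 5 without the arrays lowest and highest in skeletal muscle genes. The 2 that remained without the lowest arrays were Amacr and Pxmp2.

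**Figure D2:**
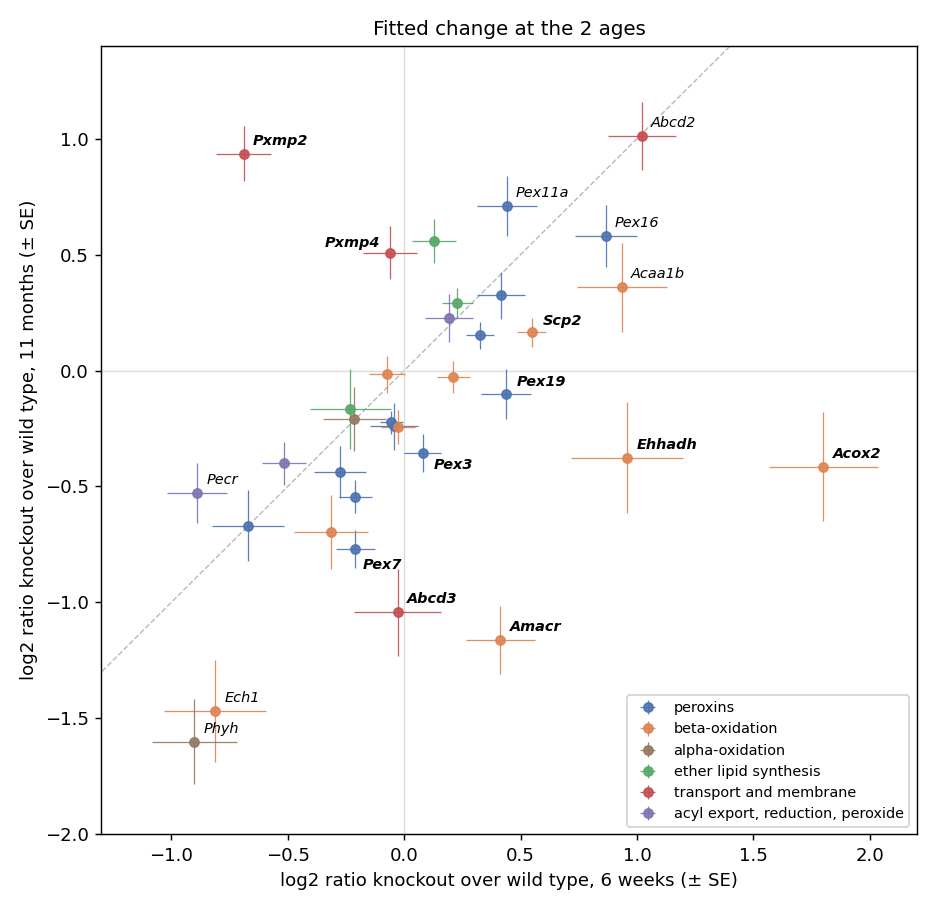
Fitted log2 ratio of knockout over wild type of the 34 genes at 6 weeks (horizontal) and 11 months (vertical), with standard errors. Colours give the role, the dashed line marks equal values, and names in bold have a called age difference. Acox2 (1.80 and -0.41), Ehhadh and Amacr lie far below the line, Pxmp2 (-0.69 and 0.94) far above it, and Abcd2 on it.

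Of 43 other genes of the organelle that were measured, 9 were higher and 3 lower at 6 weeks (median 0.17), and 5 were higher and 18 lower at 11 months (median -0.15). Over all genes, 9.18% were called higher and 7.01% lower at 6 weeks, and 17.9% and 16.8% at 11 months. At 11 months the lower genes of the organelle included Slc27a2, a very long-chain acyl-CoA synthetase (-2.62 ± 0.42, adjusted p = 0.00247), the peroxidase gene Prdx5 (-1.05 ± 0.11, adjusted p = 0.000315), the cofactor carrier Slc25a17 (-1.0 ± 0.21, adjusted p = 0.00801) and Tysnd1, the protease that processes imported enzymes (-0.99 ± 0.11, adjusted p = 0.000446). At 6 weeks Gstk1 was lower (-0.69 ± 0.12, adjusted p = 0.0108) and Tmem135 higher (0.53 ± 0.11, adjusted p = 0.0176). Of 12 nuclear receptors and cofactors of this programme, 1 was higher and 1 lower at 6 weeks, and 3 were higher and 5 lower at 11 months. Ppara had a fitted value of -1.20 ± 0.44 at 6 weeks (adjusted p = 0.105) and was lower at 11 months (-2.09 ± 0.44, adjusted p = 0.00863). Ppargc1a was not called at 6 weeks (-0.20 ± 0.16, adjusted p = 0.432) and lower at 11 months (-1.44 ± 0.16, adjusted p = 0.000478). Ppargc1b was lower at both ages (-0.83 ± 0.14, adjusted p = 0.0109, and -1.76 ± 0.14), and the corepressor gene Nrip1 was higher at both (1.21 ± 0.23, adjusted p = 0.0139, and 2.15 ± 0.23, adjusted p = 0.000353).

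Mitochondrial oxidation, the other site of fatty acid breakdown in brown fat, had list medians further below 0 at 11 months than any of the peroxisomal lists. Of 23 genes of mitochondrial fatty acid oxidation, 1 was higher and 4 lower at 6 weeks (median -0.36), and 2 were higher and 20 lower at 11 months (median -1.44). Called genes at 11 months included Cpt1b, the muscle and brown fat form of the carnitine entry enzyme (-2.74), the thiolase gene Acaa2 (-2.5), Acadvl (-2.16) and Slc25a20 (-2.01). Of 74 respiratory chain genes, 2 were higher and 12 lower at 6 weeks, and 1 was higher and 71 lower at 11 months (medians -0.27 and -1.26). For all genes the shares called were 9.18% higher and 7.01% lower at 6 weeks, and 17.9% and 16.8% at 11 months. For the peroxins the 11-month median was -0.23 and for peroxisomal beta-oxidation -0.31, with the lists' per-array medians between -0.21 and -0.13 and between -0.40 and -0.089, while those of mitochondrial fatty acid oxidation lay between -1.71 and -0.76. In each of the 8 arrays the mitochondrial fatty acid oxidation median was below those of the peroxins, peroxisomal beta-oxidation, ether lipid synthesis and the transport and membrane genes. The medians of alpha-oxidation (2 genes) and of export, reduction and peroxide breakdown (3 genes) lay below the mitochondrial one in all 4 arrays of 6 weeks and above it in all 4 of 11 months. At 6 weeks the beta-oxidation medians lay above 0 in all 4 arrays (0.0051, 0.47, 0.19 and 0.25) and the mitochondrial ones below 0 in all 4 (-0.63, -0.084, -0.29 and -0.15). Among 13 brown fat genes, 3 were lower at 6 weeks and 11 at 11 months, and Ucp1 had fitted values of 0.13 ± 0.44 (adjusted p = 0.864) and -4.05 ± 0.44 (adjusted p = 0.000419). Adipoq, the adipocyte hormone adiponectin, was higher at both ages (0.40 ± 0.077, adjusted p = 0.0147, and 1.49 ± 0.077).

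**Figure D3:**
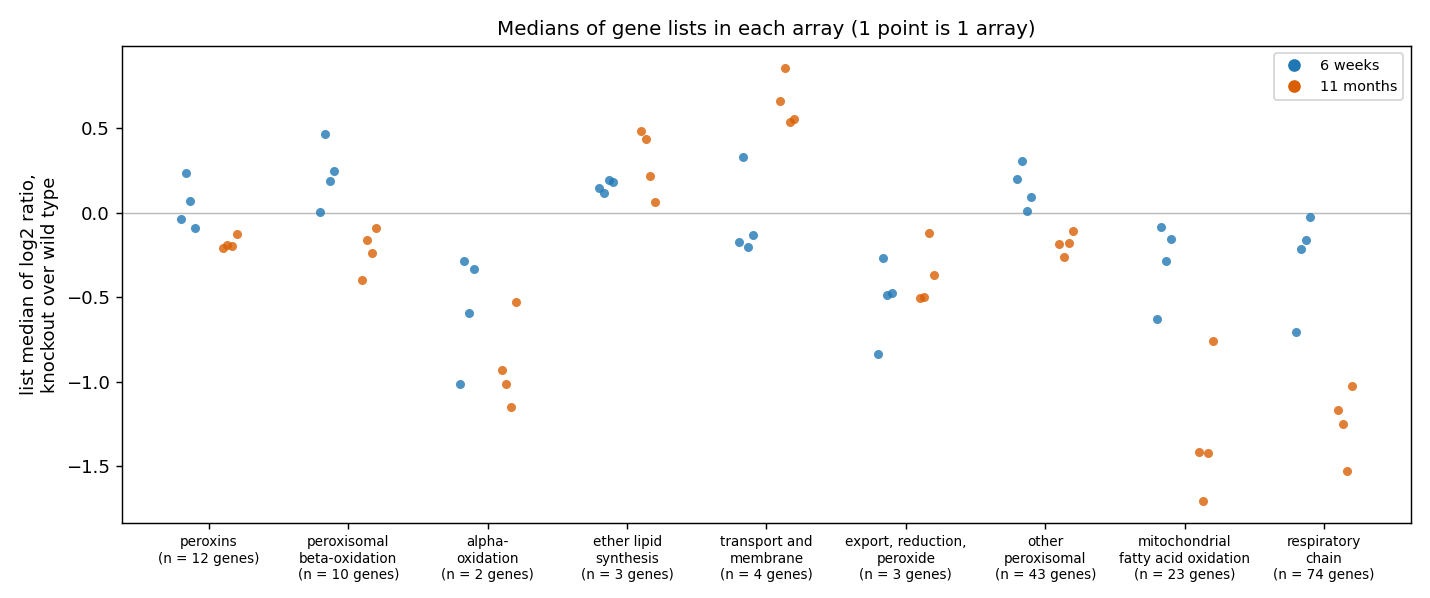
Median log2 ratio of knockout over wild type over the genes of each list (vertical axis) in each of the 8 arrays (blue, 6 weeks; orange, 11 months). At 11 months the peroxin and peroxisomal beta-oxidation medians lie between -0.40 and -0.089, and those of mitochondrial fatty acid oxidation and the respiratory chain between -1.71 and -0.76.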

How the data were processed

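RNA of knockout and wild-type brown adipose tissue was hybridised to 8 arrays. The deposited scanner tables give, per the file headers, mean spot and median background intensity read by Agilent Feature Extraction 10.5.1.1 (6 weeks) and 10.10.1.1 (11 months), on a design annotated to mm9, and a log10 ratio of Cy5 over Cy3. A value matrix that the authors deposited holds log2 ratios, with limma named in the submitters' processing notes and the normalization not given in the sources used here. Its direction was read as knockout over wild type (r = 0.917 to 0.955 with the scanner ratios), its scale and centring stay unknown (column medians -0.054 to 0.083), and it served as an alternative.

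Here, intensities were corrected by normexp (offset 50) and loess in limma 3.58.1 (R 4.3.3, with version 1.17.8 of the data.table package), with control and outlier spots at weight 0 and outlier spots (131 to 247 per array) left out. No spot was saturated. Of 39429 probes, 26853 were kept (at least 4 of 16 channel measurements well above background, and values on 3 or more arrays per age), and the brightest stood for its gene, giving 21742 genes (14810 named through RefSeq accessions). All 8 arrays were modelled together in limma, with a coefficient per age and a shared dye coefficient (5 residual degrees of freedom). In 6-week data simulated on these 21742 genes, 67 of 100 changes of 0.58 and 96 of 100 of 1 (log2) were recovered, with 4 false calls. The simulated noise was independent between genes and arrays. It held no shifts shared by many genes, such as those of the skeletal muscle genes, so recovery in the real data can differ. No genes beyond these 100 of each size were changed, while 3520 genes were called in the real 6-week data. The adjustment across all genes therefore worked on a different share of changed genes, and recovery and false calls can differ for that reason too.

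Named genes were the 34 members, Prdm16, Ppara, Ppargc1a, Ucp1, Adipoq, 1 further gene and up to 4 called genes of largest change per further list and age, not all printed; some are not reported here. Values per array were given for called peroxins, both Acaa1 genes and members called with a change of at least 0.58. Members and lists were chosen with earlier results of these data known. Alternatives covered background correction, normalization, probe filter and choice, dye term, the deposited values, each age alone, a replicate block and leaving out each array. 2 more, without the arrays lowest or highest in skeletal muscle genes, were chosen after seeing the data. Promoter sequences are RefSeq's (GRCm38.p6). The number of arrays limits the precision.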

Additional observations from a re-analysis of the deposited data

Results flagged for a closer look

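In 4 of the 68 groups of 4 arrays examined (34 genes at 2 ages), 1 array lay far from the other 3, where chance alone flags about 1 group in 20. Ehhadh on array 4 of 6 weeks was 0.21, against 1.13 to 1.31 on the others. Pxmp2 on array 1 of 6 weeks was -1.28, against -0.54 to -0.43. Pxmp4 on the same array was -0.52, against 0.046 to 0.13. Pex26 on array 1 of 11 months was -0.29, against -0.21 to -0.19.

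The effect of the knockout differed between the ages by the test of the difference (11 months minus 6 weeks, log2) in 10 genes, against 18.2% of all genes tested. It was lower at 11 months for Acox2 (-2.22), Amacr (-1.58), Ehhadh (-1.33), Abcd3 (-1.01), Pex7 (-0.56), Pex19 (-0.54), Pex3 (-0.44) and Scp2 (-0.38), and higher for Pxmp2 (1.63) and Pxmp4 (0.57). Only the differences of Amacr and Pxmp2 were called under every alternative. Those of Pex19 and Pxmp4 missed the threshold without any 1 of the 8 arrays, and that of Abcd3 without any 1 of 7. Age and batch cannot be told apart in these differences.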

How the results depend on the processing

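Of 47 called results for single genes, 46 kept their direction under every alternative. Pex26 at 11 months turned from -0.22 to 0.0099 (adjusted p = 0.959) with median centring, where the cause was not tested. Apart from leaving out arrays, 17 of the 47 kept their call throughout, and 10 results not called passed under at least 1 alternative. Among the 47, calls ended in 29 with median centring besides the reversal, 7 with the scanner software's own log ratio, 6 with no dye coefficient, 4 with no filter on dim probes, 3 with a normexp offset of 0, 4 with the replicate block, 2 with the mean of all probes of a gene and 1 each with no background correction and with the deposited values, and 2 of 37 with each age modelled alone. No call ended with between-array (Aquantile) scaling, a strict probe filter, a dye coefficient per age or kept outlier spots. The genes called numbered 15 at 6 weeks, 22 at 11 months and 10 for the difference. Median centring gave 5, 10 and 3, and changed all-gene counts from 3520, 7544 and 3952 to 948, 4912 and 552, with 70% and 70.8% of called genes higher at 6 weeks and 11 months in place of 56.7% and 51.7%. Leaving out 1 array, with fewer samples in the model, gave 8 to 17, 12 to 22 and 4 to 9. Chosen after seeing the data, leaving out the 2 arrays lowest in skeletal muscle genes gave 1 at 6 weeks and 2 for the difference, and leaving out the 2 highest gave 8 and 5. Both of the lowest were arrays of 6 weeks, so muscle content and the smaller number of arrays cannot be told apart there. Each age modelled alone gives no value for the difference. Same-numbered arrays of the 2 ages did not deviate together (r = -0.20 to -0.063), so the numbers do not pair them. With the replicate block the counts were 15, 23 and 8. The calls that ended were Ehhadh at 6 weeks (adjusted p = 0.059) and the differences of Ehhadh (0.0605), Pex3 (0.078) and Scp2 (0.0576), and those gained were Agps at 6 weeks (0.0445), Acaa1b at 11 months (0.0379) and the Acaa1b difference (0.0419). The probe that stood for each of the 34 genes was well above background in every channel, but the second probes of Pex26 and Far1 were not.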
